A study of Mus musculus with 6 samples.

Results

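The genes described are 7 that mark T cells of the mouse epidermis: Cd3e, Cd3g, Cd3d, Cd247, Trdc, Thy1 and Cd52. They were found by gene symbol in the deposited count table, where all 7 are listed among 19618 genes. RNA was sequenced from tail skin keratinocyte preparations of mice aged 4 months, with 3 libraries from epidermal Gpr161 knockout mice and 3 from controls. The knockout mice carried K14cre, a Cre recombinase driven by the promoter of the basal keratinocyte gene keratin 14, and 2 floxed copies of Gpr161. Among the controls, whose genotypes list no K14cre, 1 mouse was homozygous and 2 were heterozygous for the floxed Gpr161 allele. Gpr161 encodes a receptor of the primary cilium that restrains Hedgehog signalling. Libraries are named by the tag in their column: the knockouts are DE679, DE685 and DE688, while DE680, DE684 and DE689 are controls. The column names do not say which control was homozygous.

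The mouse epidermis holds a resident population of gamma-delta T cells, the dendritic epidermal T cells, which settle there before birth and lie between the keratinocytes beside the Langerhans cells. Like every T cell they carry a receptor of 2 variable chains, here gamma and delta, bound to the invariant CD3 chains, which pass the signal into the cell. CD3 epsilon pairs with CD3 gamma or CD3 delta, and the CD247 (zeta) chains form a dimer of their own. They respond to stressed keratinocytes and are known for a part in wound repair and surveillance of the skin.

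Total estimated counts were 17157864 to 25344399 per library, and the 7 genes together took 0.00226% to 0.00666% of them. The keratinocyte gene Krt14 had 8847 to 11470 CPM (the count scaled to its library's total, with TMM factors that even out library composition), so the labelled cell type was present in each library. Gpr161, the targeted gene, overlapped between the groups, so it does not check the labels, and every group is named here by its label alone. It was 25.9 to 33.6 CPM in the knockout and 30.2 to 32.2 CPM in the control, and the log2 fold change was −0.13 (SE 0.11, edgeR adjusted p 0.553). Xist and Y-linked transcripts placed a male library in each group, DE685 (knockout) and DE684 (control). Whether the floxed exons fall among the counted reads was not tested. The labels list separate samples of each group and do not tie each to 1 animal, so the p-values measure the spread between these samples.

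Cd3g, Cd3d and Cd3e lie together on chromosome 9 within 40.1 kb (GRCm38), and Cd3g and Cd3d start 1.35 kb apart on opposite strands. Cd3g spans 44969572 to 44980431 (minus strand), Cd3d 44981786 to 44987339 (plus) and Cd3e 44998740 to 45009627 (minus). Thy1 lies on the same chromosome at 44043384 to 44048579 (plus), and Cd52 on chromosome 4 at 134082448 to 134095082 (minus). The promoter table held 4 of the 7 members. The windows of the Cd3 genes, from 250 bases before to 50 after the start (RefSeq, GRCm38.p6), are shown because these neighbouring genes encode the chains that pair in the CD3 complex. Capitals mark AGGAAG, the core of sites for ETS factors, on either strand. The Cd3g window is chr9:44980382-44980681 (minus strand), the Cd3d window chr9:44981536-44981835 (plus strand) and the Cd3e window chr9:45009562-45009861 (minus strand).
Cd3g: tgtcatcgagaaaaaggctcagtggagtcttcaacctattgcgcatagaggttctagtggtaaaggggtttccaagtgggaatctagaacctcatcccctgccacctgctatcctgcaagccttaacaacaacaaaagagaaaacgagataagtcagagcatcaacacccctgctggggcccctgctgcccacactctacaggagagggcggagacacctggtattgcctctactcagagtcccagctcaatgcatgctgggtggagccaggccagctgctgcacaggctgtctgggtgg
Cd3d: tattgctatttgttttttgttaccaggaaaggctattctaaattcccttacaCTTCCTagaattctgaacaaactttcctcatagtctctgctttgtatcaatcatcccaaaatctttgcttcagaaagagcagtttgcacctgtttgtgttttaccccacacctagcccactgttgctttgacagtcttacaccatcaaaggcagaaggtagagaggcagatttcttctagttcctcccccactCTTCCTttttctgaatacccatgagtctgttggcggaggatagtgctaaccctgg
Cd3e: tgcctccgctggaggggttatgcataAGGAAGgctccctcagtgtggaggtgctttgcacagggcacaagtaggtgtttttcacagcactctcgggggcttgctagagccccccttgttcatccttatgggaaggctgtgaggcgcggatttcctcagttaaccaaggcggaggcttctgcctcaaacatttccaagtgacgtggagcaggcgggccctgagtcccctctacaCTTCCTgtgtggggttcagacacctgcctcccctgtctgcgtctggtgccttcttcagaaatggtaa
AGGAAG occurs 2 times in the Cd3d window and 2 times in the Cd3e window and was not found in that of Cd3g. At least 1 match occurs in 35.1% of 32544 promoter windows of the same length. The E-box CANNTG, bound by helix-loop-helix factors, was found 4 times for Cd3g, 1 time for Cd3d and 2 times for Cd3e, against 72.3% of windows with at least 1. The GATA core AGATAA was found 1 time, in the Cd3g window (11.2% of windows hold it), and the RUNX core TGTGGT and the TATA box TATAAA in none of the 3 (16.7% and 13.6% of windows). The motifs were searched on both strands, and none of these matches is evidence of binding.

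The T cell receptor genes were detected in every library at low levels that overlapped between the groups. None of the 6 members that could be tested passed an adjusted p of 0.05, where 1.6% of all 15422 genes tested did (edgeR quasi-likelihood test, Benjamini-Hochberg adjustment). Of all genes tested, 1.24% were called higher and 0.357% lower in the knockout. At an unadjusted p under 0.05 there was 1 of 6, Thy1, where 19% of all tested genes were. DESeq2 called 1 member, again Thy1, where it called 872 of all 15422 genes. Limma-voom and limma on the authors' normalized values called 0 members. The fitted difference was above 0 for 6 of the 6 tested members, against 49.3% of all genes tested, and each of the 7 members had its highest CPM in the knockout library DE679, which holds the highest value for 16.9% of tested genes. A difference in T cell number and a difference in RNA per T cell cannot be told apart in such bulk libraries.

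Cd3e, the epsilon chain needed for every CD3 pair, stood at 2.08 (DE679), 0.751 (DE685) and 1.05 CPM (DE688) with the knockout and at 1.38 (DE680), 0.526 (DE684) and 1.07 CPM (DE689) without it. These rest on 12 to 49 counts a library. The groups overlapped, with the knockout DE679 the highest library and the control DE684 the lowest. Group means were 0.991 ± 0.430 CPM for controls and 1.29 ± 0.696 for knockouts (SD, n = 3 each), and the fitted log2 difference was 0.40 (SE 0.48, edgeR adjusted p 0.694). Without DE679 the difference turned to −0.12.

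Cd3g, the gamma chain of CD3, stood at 2.04 (DE679), 1.21 (DE685) and 1.13 CPM (DE688) with the knockout and at 1.64 (DE680), 0.790 (DE684) and 1.31 CPM (DE689) without it. DE679 and DE684 were again the extremes. Among the other 4 libraries, both controls lay above both knockouts, opposite to the sign of the fitted difference. The log2 fold change was 0.23 (SE 0.38, edgeR adjusted p 0.782), −0.09 without DE679 and −0.01 without DE684. The interval of the fold, 0.642 to 2.14 at 95%, covers differences in both directions.

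Cd3d, the delta chain of CD3, was too low to measure a difference. The knockouts gave 25 (DE679), 3 (DE685) and 9 counts (DE688) and the controls 8 (DE680), 4 (DE684) and 14 (DE689). The filter asks for 0.428 CPM, which is 10 counts at the median depth, in 3 libraries, and Cd3d reached it in DE679 and DE689 alone. At 3 counts, DE685 stood at the level taken here as the floor. Summed over each group, Cd3d had 37 against 26 counts, a ratio of 1.51 with a counting interval of 0.888 to 2.59, which leaves out the spread between libraries.

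Trdc, the constant segment of the T cell receptor delta chain and the member that sets gamma-delta T cells apart, stood at 3.99 (DE679), 1.79 (DE685) and 2.26 CPM (DE688) with the knockout. In the controls it stood at 2.31 (DE680), 0.965 (DE684) and 2.10 CPM (DE689). Apart from DE679 at the top and DE684 at the bottom, 4 libraries lay between 1.79 and 2.31 CPM and came from both groups. The means were 2.68 ± 1.16 and 1.79 ± 0.723 CPM (SD, n = 3 each), and the fitted log2 difference was 0.58 (SE 0.42, edgeR adjusted p 0.482). The 95% interval of the fold ran from 0.768 to 2.93, and the log2 difference was 0.18 without DE679 and 0.29 without DE684. Exons of Trdc (chromosome 14, 54142851 to 54148868, plus strand) overlap Trdv5 and Gm43434 on the opposite strand; the library kit was stranded, but whether counting used the strand is not given in the sources used here.

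**Figure D1:**
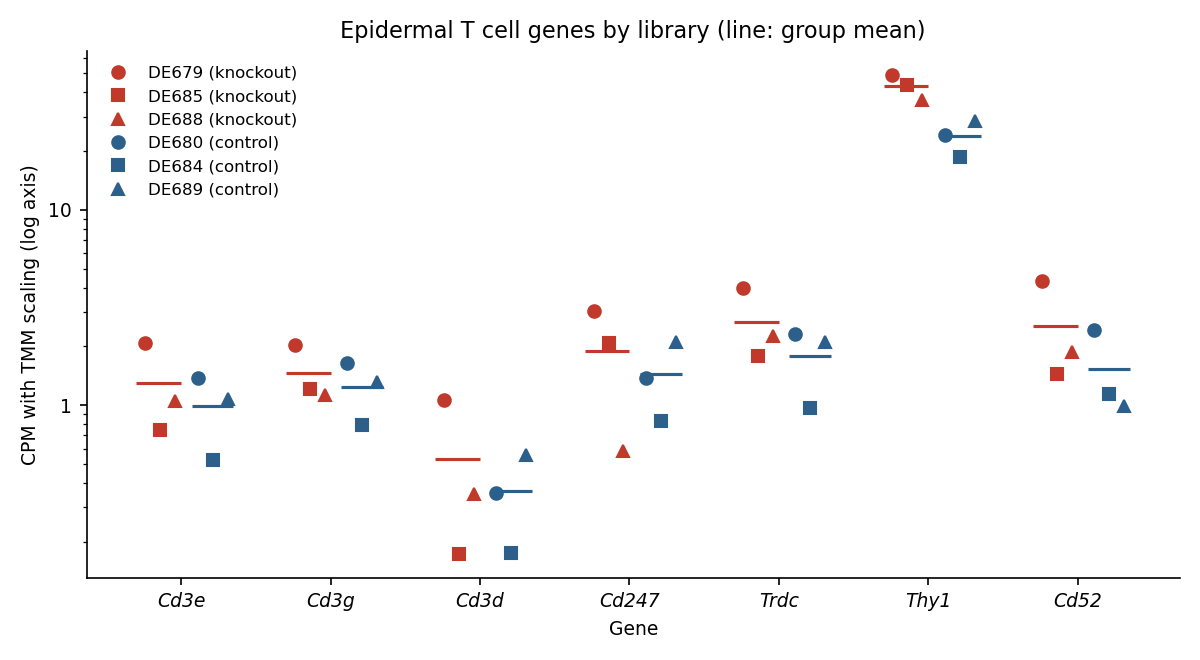
CPM with TMM scaling (log axis) of each of the 7 genes in the 3 knockout libraries (red) and 3 control libraries (blue); short lines are group means. The knockout and control points overlap for every gene except Thy1, where the knockout libraries (36.6 to 49.3 CPM) lie above the controls (18.8 to 28.6 CPM), and DE679 is the highest point of each gene.

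Cd247, the zeta chain, did not follow the CD3 genes. It stood at 3.05 (DE679), 2.08 (DE685) and 0.583 CPM (DE688) with the knockout and at 1.38 (DE680), 0.834 (DE684) and 2.10 CPM (DE689) without it. Its lowest library was DE688, a knockout in which Trdc and Cd3e were mid-range. The log2 fold change was 0.39 (SE 0.58, edgeR adjusted p 0.757) and turned to −0.15 without DE679. Exons of Cd247 (chromosome 1, 165788681 to 165877277, plus strand) overlap 3007 bases of exons of Pou2f1 on the opposite strand, a broadly expressed transcription factor gene at 53.9 to 77.4 CPM, so the Cd247 counts are uncertain to that extent. Cd247 also lies 462 kb from Gpr161, the targeted gene.

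Thy1 and Cd52 encode surface proteins that are not restricted to T cells: Thy1 is also made by fibroblasts and neurons, and Cd52 by many leukocytes. Thy1 stood at 49.3 (DE679), 43.7 (DE685) and 36.6 CPM (DE688) with the knockout and at 24.3 (DE680), 18.8 (DE684) and 28.6 CPM (DE689) without it. Every knockout library was above every control library, a separation that 25.6% of all tested genes show in either direction and 12.8% with the knockout higher. The means were 43.2 ± 6.33 and 23.9 ± 4.92 CPM (SD, n = 3 each), and the fitted log2 difference was 0.85 (SE 0.17, unadjusted p 0.000982, edgeR adjusted p 0.0560), short of the threshold. It passed with upper-quartile factors (adjusted p 0.0468), with a sex covariate (0.0332) and with DESeq2 (3.43e-05), and its adjusted p was 0.0635 to 0.189 in the fits that left out 1 library. Per CPM of the Cd3e, Cd3g, Cd3d and Trdc sum, Thy1 was 8.05 ± 2.89 in the knockout and 5.86 ± 1.69 in the control (SD, n = 3 each), so this ratio overlapped.

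The list of markers of dermal and other Thy1-bearing cells (Col1a1, Pdgfra, Pecam1 and others) had mostly values below 0. It summed to 19.8 to 24.5 CPM in the knockout and 17.1 to 46.2 in the control, and DE684, where Thy1 was lowest, had the highest sum. Of its 11 genes 8 were tested and 0 were called by edgeR, with 0 at an unadjusted p under 0.05 and 0 called by DESeq2, limma-voom or limma. Their median log2 fold change was −0.40, where the median of all tested genes was −0.0036. Each of its genes had counts in all 6 libraries. The part of such cells in the Thy1 values was not tested.

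Cd52 stood at 4.33 (DE679), 1.44 (DE685) and 1.87 CPM (DE688) with the knockout and at 2.44 (DE680), 1.14 (DE684) and 0.992 CPM (DE689) without it. The control DE680 lay above knockouts DE685 and DE688, so the groups overlapped. The log2 fold change was 0.75 (SE 0.51, edgeR adjusted p 0.457), and it was 0.13 without DE679 and 1.26 without DE680. Exons of Cd52 overlap 172 bases of Crybg2 on the opposite strand, which had 57.7 to 85.5 CPM.

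**Figure D2:**
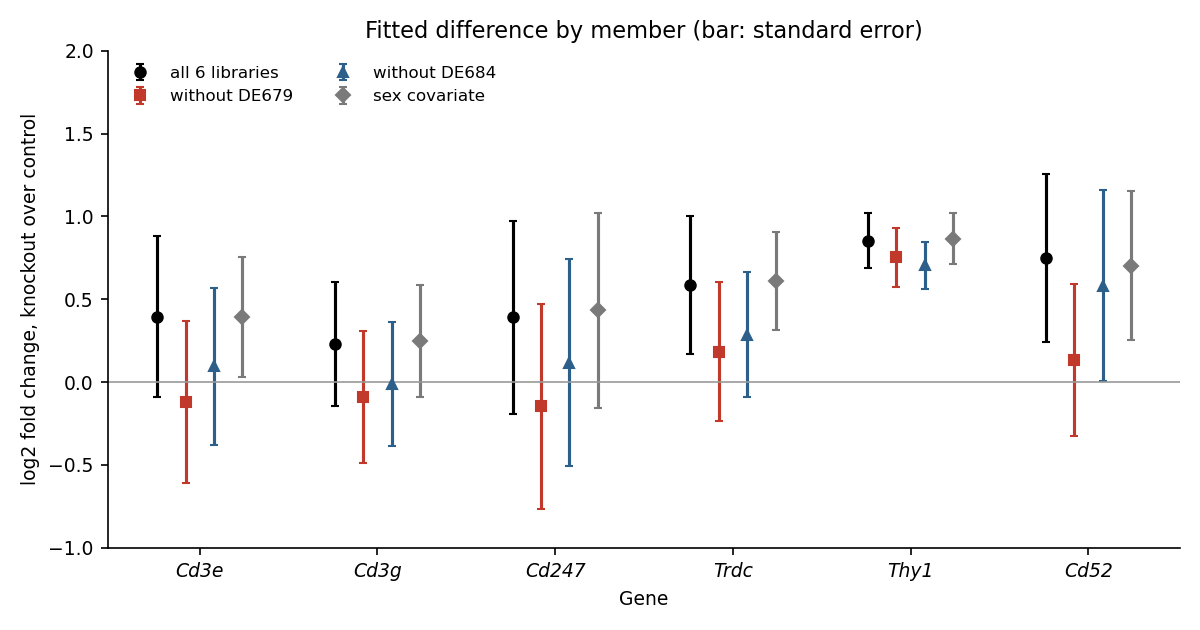
Log2 fold change, knockout over control, with its standard error, for the 6 members tested: all 6 libraries (black), without DE679 (red), without DE684 (blue) and with a sex covariate (grey). Without DE679 the Cd3e, Cd3g and Cd247 values turn below 0, while Thy1 stays between 0.71 and 0.87 in the fits drawn.

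Per kb of merged exon, the level over the 6 libraries was 11.2 CPM per kb for Thy1, 1.71 for Cd52, 0.578 for Trdc, 0.414 for Cd3g, 0.314 for Cd247, 0.280 for Cd3e and 0.245 for Cd3d. Thy1 was above Cd52, Cd52 above Trdc, Trdc above Cd3g and Cd3g above Cd3e in 6 of 6 libraries. Between libraries the ranges of Cd52 (0.836 to 3.64) and Trdc (0.250 to 1.03) overlapped, as did those of Trdc and Cd3g (0.242 to 0.623), and those of Thy1 (6.27 to 16.5) and Cd52 did not. Exon lengths come from GENCODE M21 and the transcripts made in these cells were not analysed here.

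The summed CPM of Cd3e, Cd3g, Cd3d and Trdc gives a single value of T cell receptor RNA for each library and does not count cells. The knockouts gave 9.16 (DE679), 3.93 (DE685) and 4.78 (DE688) and the controls 5.68 (DE680), 2.46 (DE684) and 5.04 (DE689). The counting interval of DE679 (7.98 to 10.5, from 216 counts, exact Poisson at 95%, counting error only) lies above those of the other 5 libraries, and that of DE684 (1.86 to 3.19) below all but that of DE685 (3.05 to 4.98). Within groups the libraries thus differed by more than counting error. The lower library of each group in this sum was the male one: among the 4 others the knockouts had 9.16 and 4.78 and the controls 5.68 and 5.04, which overlap, and the male pair had 3.93 and 2.46.

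Ptprc (CD45), found on all leukocytes, had 3.86, 1.85 and 2.14 CPM in DE679, DE685 and DE688, and 2.66, 0.746 and 1.67 in DE680, DE684 and DE689. The T cell sum was 2.12 to 2.37 times Ptprc in the knockout and 2.13 to 3.29 times in the control. The list of genes of all leukocytes, Cd52 included, had 9 tested genes, 9 of them highest in DE679 and 4 lowest in DE684. Their median log2 fold change was 0.75. In edgeR 0 were called and 2 had an unadjusted p under 0.05, where 19% of all tested genes did. DESeq2 called 1 (Rac2), where it called 872 of all 15422 genes, and limma-voom and limma called 0. Langerhans cell markers, none at 0 in any library, summed to 104 to 217 CPM in the knockout and 69.2 to 186 in the control. Of the 10 markers 8 were tested, 4 of them highest in DE679 and 7 lowest in DE684, with a median log2 fold change of 0.52. None was called by any of these tools, and 0 had an unadjusted p under 0.05 in edgeR. With the sex covariate 0 were called and 6 of 8 had an unadjusted p under 0.05 (21.2% of all genes did), and in the 4 female libraries 0 were called and 5 of 10 did (16.7% of all genes). Cd207 (langerin), which defines these cells, had 4.07, 1.44 and 3.62 CPM in the knockout libraries DE679, DE685 and DE688 and 2.84, 0.263 and 1.63 in the controls DE680, DE684 and DE689. The part of these cells in the members' values was not tested.

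The genes with the profile closest to the T cell receptor members were led by Itgae, which encodes CD103, the integrin alpha chain that holds epidermal T cells to E-cadherin on keratinocytes. Likeness was the root mean square difference of centred log2 CPM over the 6 libraries from the summed CPM of Cd3e, Cd3g, Cd3d, Trdc and Cd247, among 13659 genes with a mean of at least 1 CPM. Itgae ranked 1 with a difference of 0.110, where the median gene had 0.578. Its CPM was 6.23, 3.47 and 2.88 in DE679, DE685 and DE688 and 4.21, 2.02 and 3.61 in DE680, DE684 and DE689. Lat, an adaptor that the activated receptor uses, ranked 4 (0.180). Gm7008 (0.136), Akna (0.177), Fxyd5 (0.187), Me3 (0.192), Rpl6l (0.233) and Adora2b (0.233) made up the other 6 of the 8 closest. Ptprc ranked 21. Genes of the Langerhans cell list ranked from 20 (Ctss) to 12976 (Cd207), with H2-Aa at 738. The measure takes in the size of the swings between libraries as well as their direction. Among the members, Trdc differed from the sum by 0.170, Cd3g by 0.198, Cd3e by 0.204, Cd3d by 0.370 and Cd247 by 0.487, which is in part given by their place in the sum. Outside the sum, Thy1 differed by 0.407 and Cd52 by 0.469.

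**Figure D3:**
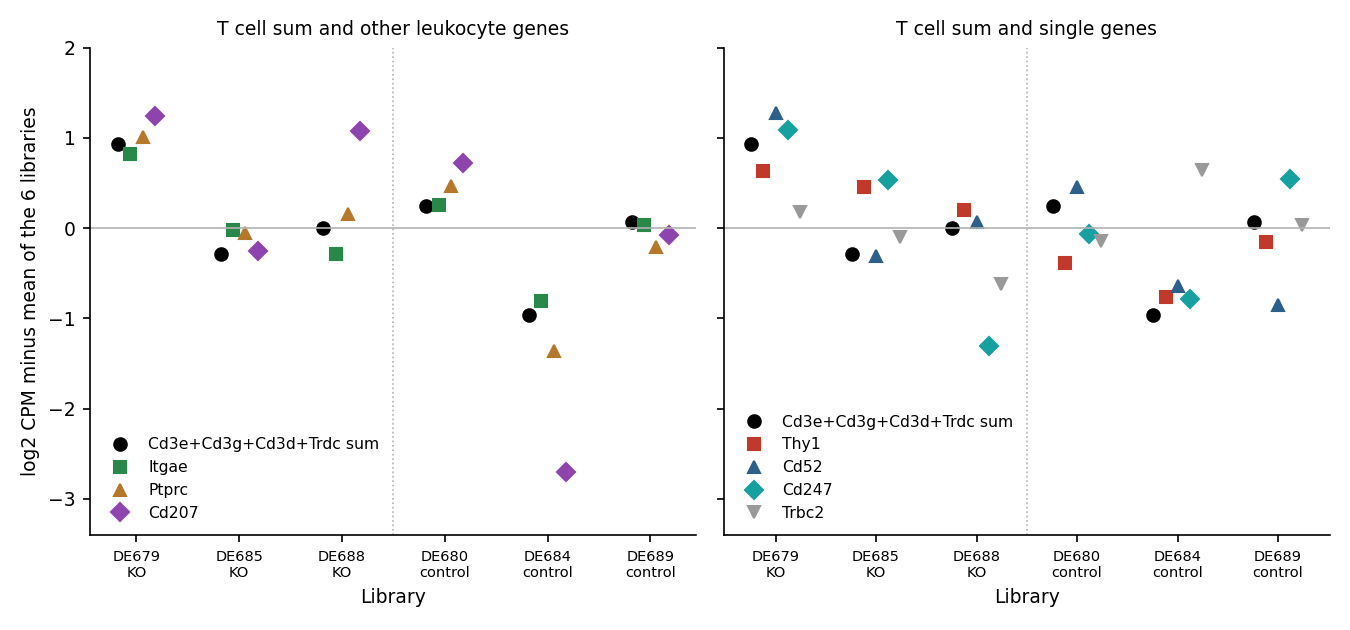
Log2 CPM in each library minus the mean of the 6 libraries, for the Cd3e, Cd3g, Cd3d and Trdc sum with Itgae, Ptprc and Cd207 (left) and with Thy1, Cd52, Cd247 and Trbc2 (right); knockout (KO) libraries are left of the dotted line. Itgae and Ptprc lie near the sum in each library, Cd207 drops further in DE684, Cd247 is low in DE688 and Trbc2 is highest in DE684, where the sum is lowest.

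In the list of epidermal gamma-delta T cell genes, which holds Trdc, 12 of 25 were tested, 9 with a difference above 0 and 3 below. None was called by edgeR, DESeq2, limma-voom or limma, and the median log2 fold change was 0.56. At an unadjusted p under 0.05 in edgeR there were 2 of 12 (Jaml and Sema4d), where 19% of all tested genes were. The 3 genes below 0 were Sema4d, Cd7 and Ctsw. Sema4d, a semaphorin that binds plexin B2, had 32.4, 32.1 and 28.8 CPM in the knockouts DE679, DE685 and DE688 and 34.3, 41.9 and 40.9 in the controls DE680, DE684 and DE689. Over the 6 libraries it had 4.57 CPM per kb of merged exon, against 0.578 for Trdc. Its profile ranked 11113 of 13659 in likeness to the receptor members, and which cells gave its counts was not tested. Its groups did not overlap, as in 25.6% of all tested genes, and its log2 difference was −0.33 (SE 0.10, edgeR adjusted p 0.143). Cd7 gave −0.39 (SE 0.61, edgeR adjusted p 0.769) and Ctsw, the protease cathepsin W, −0.29 (SE 0.52, edgeR adjusted p 0.802). Trdv4, the variable segment of the epidermal delta chain, had 1.06, 0.809 and 0.583 CPM in DE679, DE685 and DE688 and 0.399, 0.439 and 0.555 in DE680, DE684 and DE689, and the log2 difference was 0.80 (SE 0.37, edgeR adjusted p 0.291). Jaml, the receptor through which these cells sense the keratinocyte protein CXADR, gave a log2 difference of 1.66 (SE 0.53, edgeR adjusted p 0.162). Its CPM was 2.33, 1.44 and 0.739 in the knockouts and 0.754, 0.351 and 0.317 in the controls, in the same order, so the groups overlapped at 0.739 and 0.754. Il2rb, a receptor chain for interleukin 15, gave 0.57 (SE 0.50, edgeR adjusted p 0.572). Trgc1, the gamma chain constant segment, ranged from 0.119 to 1.74 CPM, and near-identical gamma chain copies may share its reads. The epidermal gamma variable segment Trgv5 had at most 6 counts in a library, and granzyme C at most 4.

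In the receptor signalling list, which holds Cd3e, Cd3g, Cd3d and Cd247, 10 of 19 genes were tested and 0 were called by edgeR, DESeq2, limma-voom or limma, with 2 at an unadjusted p under 0.05 in edgeR (Lck and Cd5), a share near the 19% of all tested genes. The median log2 fold change was 0.40, with 9 values above 0. Over the 6 libraries Cd5 had 1.36 CPM per kb of merged exon, against 0.280 for Cd3e. The profile of Cd5 ranked 6338 of 13659 in likeness to the receptor members, and which cells gave its counts was not tested. Lck, the kinase that starts receptor signalling, gave 1.03 (SE 0.41, edgeR adjusted p 0.236), Zap70, the kinase recruited to the phosphorylated CD3 chains, 0.75 (SE 0.47, edgeR adjusted p 0.420) and Lat 0.65 (SE 0.41, edgeR adjusted p 0.428). Over the receptor signalling, gamma-delta and alpha-beta lists, 17 of 25 tested genes, members included, had their highest CPM in DE679 and 14 of 25 their lowest in DE684, against 16.9% and 18.3% of all genes.

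Of the 8 listed genes of conventional alpha-beta T cells, 5 were too low for the filter, and Trac and Cd4 had more counts in each knockout library than in any control. Trac, the alpha chain constant segment, gave 19 (DE679), 5 (DE685) and 19 counts (DE688) in the knockouts and 3 (DE680), 2 (DE684) and 3 (DE689) in the controls. Every control was at or under 3 counts; the group ratio was 5.69 with a counting interval of 2.65 to 14. Cd4, the coreceptor of helper T cells, had 30, 15 and 10 counts in DE679, DE685 and DE688. The controls DE680, DE684 and DE689 had 3, 0 and 0, and the ratio was 19.4 (counting interval 6.31 to 97.0). The counting intervals of Trac and Cd4 pool the reads of each group and leave out the spread between libraries. Icos, a costimulatory receptor, had 36, 5 and 6 against 7, 0 and 0 counts, so its groups overlapped. Foxp3 and Ctla4, genes of regulatory T cells, had at most 5 counts in any library.

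Without the filter neither Trac nor Cd4 was called by edgeR (adjusted p 0.107 and 0.101), where 1.17% of 19618 genes were. Of 20 genes in these 3 lists that the filter removed, 7 had groups that did not overlap (Cd2, Cd6, Cd28, Ubash3a, Sit1, Trac and Cd4), each higher in the knockout; among all genes the filter removed, 12.1% had groups that did not overlap and 6.7% did so with the knockout higher. None of the 7 gamma-delta list genes removed was among them. As a share of the Trac and Trdc counts, Trac made up 16.8% (DE679), 13.9% (DE685) and 24.7% (DE688) in the knockouts and 5.45% (DE680), 8.33% (DE684) and 5.36% (DE689) in the controls. The exact 95% binomial intervals of DE679 (10.4% at the lower bound) and DE685 (4.67% to 29.5%) overlapped those of all 3 controls, and that of DE688 (15.6% to 35.8%) overlapped that of DE684 alone. An exact two-sided permutation test of these shares over 3 against 3 libraries could not go below p = 0.1.

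**Figure D4:**
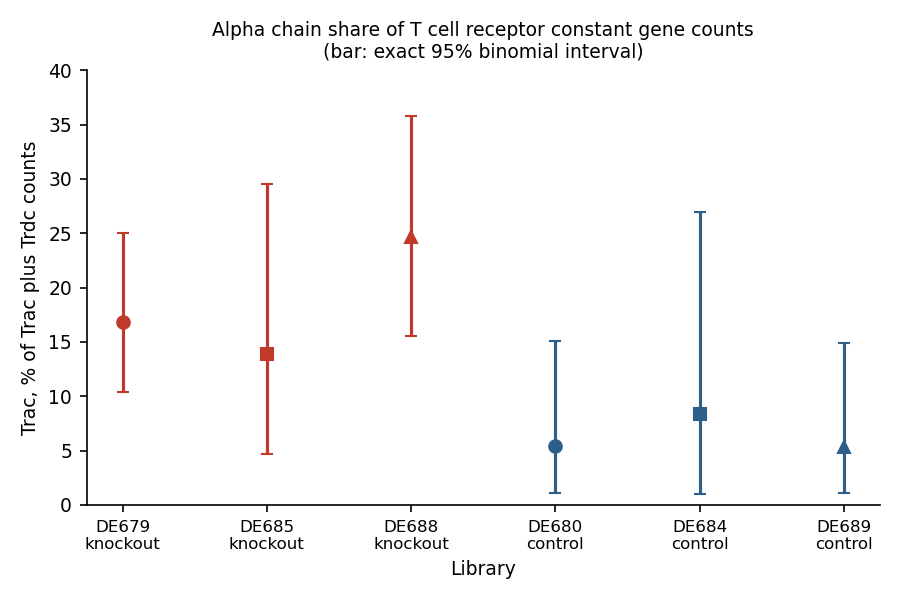
Trac as a percentage of the Trac plus Trdc counts in each library, with exact 95% binomial intervals that cover counting error only. The 3 knockout libraries (red, 13.9% to 24.7%) lie above the 3 controls (blue, 5.36% to 8.33%), and the intervals of DE685 and DE684 span most of that range.

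Trbc1 and Trbc2, the beta chain constant segments, were well above the filter, unlike Trac. Trbc2 had 9.50, 7.86 and 5.45 CPM in DE679, DE685 and DE688 and 7.63, 13.1 and 8.61 in DE680, DE684 and DE689, so its highest library was DE684, the one in which the CD3 and Trdc sum was lowest. None of the 3 tested genes of the alpha-beta list (Trbc1, Trbc2 and Il7r) was called by edgeR, DESeq2, limma-voom or limma, 0 had an unadjusted p under 0.05 in edgeR, and their median log2 fold change was 0.04. The log2 fold change of Trbc2 was −0.36 (SE 0.26, edgeR adjusted p 0.489), and Trbc1 gave 0.04 (SE 0.44, edgeR adjusted p 0.967). The 2 segments are near-identical, and their counts are uncertain to the extent that reads were split between them.

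Among 20 keratinocyte factors that epidermal T cells respond to or depend on, Il7 rose in the knockout and the other 17 tested genes did not pass. At an unadjusted p under 0.05 there were 7 of 18 (Il7, Cxadr, Skint10, Tgfb1, Ccl27a, Skint4 and Il15), against 19% of all genes, and 9 of 18 had groups that did not overlap, against 25.6%. Il7, a survival factor for gamma-delta T cells that keratinocytes make, had 16.8, 15.9 and 17.3 CPM in DE679, DE685 and DE688 against 7.99, 9.04 and 6.98 in DE680, DE684 and DE689. The means were 16.7 ± 0.677 and 8.00 ± 1.03 CPM (SD, n = 3 each), and the fitted log2 difference was 1.06 (SE 0.12, edgeR adjusted p 0.00941), and without DE688 the adjusted p was 0.0560. Exons of Il7 overlap 105 bases of Gm16685 on the opposite strand, which had 0.194 to 0.866 CPM. Il7 did not follow the CD3 and Trdc sum among knockout libraries, which ran from 3.93 to 9.16 CPM. Its receptor chain Il7r gave 1.27 (SE 0.56, edgeR adjusted p 0.267), with 2.12, 1.21 and 1.21 against 1.07, 0.175 and 0.635 CPM in the same order.

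Il15, another T cell survival factor, gave −0.57 on the log2 scale (SE 0.24, edgeR adjusted p 0.253), and Cxadr, the ligand of JAML, 0.29 (SE 0.06, edgeR adjusted p 0.0631). Tgfb1, which induces CD103, gave 0.41 (SE 0.11, edgeR adjusted p 0.129). Skint1, the butyrophilin-like gene required for dendritic epidermal T cells to develop, gave 0.08 (SE 0.14, edgeR adjusted p 0.785). Over 10 tested Skint genes the values ran from −0.63 (Skint10, edgeR adjusted p 0.105) to 0.52, and reads may be shared among these related genes. DESeq2 called 5 of the 18 tested factors (Il7, Ccl27a, Cxadr and Tgfb1 higher, Skint10 lower), where it called 872 of all 15422 genes. Limma-voom and limma each called 1 (Il7), where they called 244 and 254 of all genes.

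**Figure D5:**
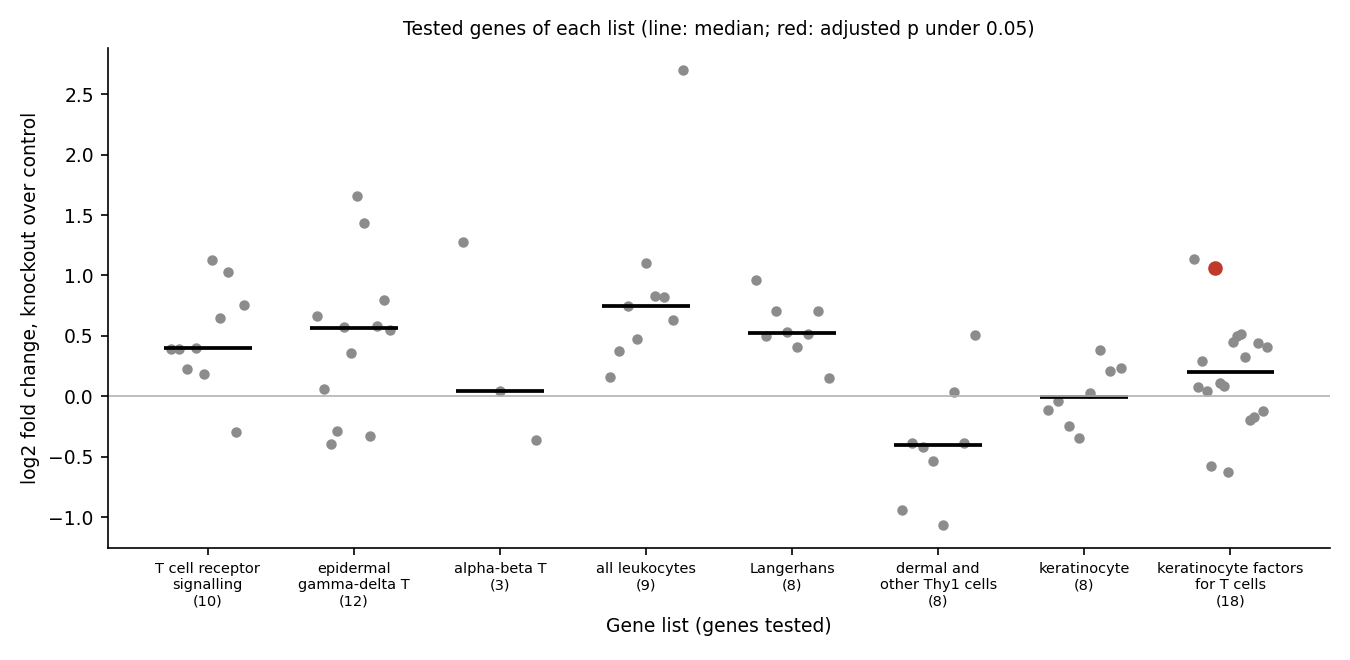
Log2 fold change, knockout over control, of each tested gene (points) in 8 lists, with the median (line); genes with an adjusted p under 0.05 are red. Only Il7, among the keratinocyte factors, is red; the medians of the leukocyte (0.75), gamma-delta T cell (0.56) and Langerhans (0.52) lists lie above 0 and that of the dermal list (−0.40) below.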

How the data were processed

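Per the submitters' processing notes, bcl2fastq 2.20, cutadapt 1.18, STAR 2.7.0f and Partek were used with the build mm10; their roles and the annotation are not given in the sources used here. The authors deposited estimated counts per gene, of which 53.0% to 57.7% of a library's values were whole, and a normalized signal equal to the count times a library constant plus 0.001. Per the file headers, columns came from alignments with duplicates marked and name the group but no sample, so libraries were assigned to groups only.

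Counts were rounded, filtered with filterByExpr, scaled with TMM and tested with the edgeR 4.0.16 quasi-likelihood test over all 6 libraries (R 4.3.3), with genotype as the only term; the design had assumed raw counts. P-values were adjusted by Benjamini-Hochberg over 15422 genes, with 0.05 as the threshold. The fit was tested on simulated data. Alternatives were DESeq2 1.42.0, limma-voom (limma 3.58.1), RLE or upper-quartile factors, no filter, a filter that keeps genes averaging 1 CPM or more, limma on log2 of the authors' normalized value plus 1, a sex covariate read from Xist and Y-linked counts, leaving out each library, and the 4 female libraries (added after the data were seen). Coordinates of 98.8% of matched genes equalled GENCODE M21 (GRCm38).

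Members and lists were chosen with earlier results of these data known. Named genes are the 7 members, genes of 9 lists, and the 8 closest in profile. The lists were T cell receptor signalling, epidermal gamma-delta T cell, alpha-beta T cell, all leukocytes, Langerhans cell, macrophage with neutrophil and mast cell, dermal and other Thy1-bearing cells, keratinocyte, and keratinocyte factors for T cells; another list and a single gene are not reported here.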

Additional observations from a re-analysis of the deposited data

How the results depend on the processing

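Of the members, 1 (Thy1) was called with upper-quartile factors, 1 with DESeq2 and 1 with a sex covariate, and 0 in the 6 fits that left out 1 library (0 to 0), in the 4 female libraries, which was chosen after seeing the data, and under the other alternatives. Over the lists, 1 gene was called, against 8 with DESeq2, 3 with the sex covariate and 0 to 1 with a library left out, the 0 without DE688. Over all genes, 247 were called, against 872 with DESeq2, 409 with the sex covariate and 87 in the 4 female libraries. The fits with a library left out called 69 (without DE688) to 121 (without DE684). The fits on the 4 female libraries or with a library left out hold fewer samples, and the cause of these differences was not tested. With a library left out, the log2 fold change ran from −0.12 to 0.69 for Cd3e, −0.089 to 0.47 for Cd3g, −0.15 to 0.83 for Cd247, 0.18 to 0.80 for Trdc, 0.71 to 1.01 for Thy1 and 0.13 to 1.26 for Cd52; without DE679 Cd3e, Cd3g and Cd247 turned negative, and without DE684 Cd3g (−0.01). No paired analysis was possible because the columns carry no replicate numbers. Depth limits the CD3 genes: 3 counts are 0.117 to 0.173 CPM, against 0.173 to 1.06 CPM for Cd3d.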

Other observations

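The tested macrophage genes were Cd68 and Itgam. Cd68, a lysosomal protein of macrophages, had 2.93, 3.70 and 3.46 CPM in the knockouts DE679, DE685 and DE688 and 3.11, 3.29 and 3.45 in the controls DE680, DE684 and DE689. Itgam had 4.83, 3.06 and 3.19 CPM in these knockouts and 4.21, 5.31 and 1.51 in these controls, in the same order. Of the macrophage, neutrophil and mast cell list, 4 of 10 genes were in the table and 2 were tested. None was called by edgeR, DESeq2, limma-voom or limma, and 0 had an unadjusted p under 0.05 in edgeR. Lyz2 had at most 6 counts in a library.

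Cd207 was 0.444, 0.368 and 0.756 times the CD3 and Trdc sum in the knockouts DE679, DE685 and DE688 and 0.500, 0.107 and 0.323 times in the controls DE680, DE684 and DE689, so this ratio overlapped between the groups.

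The 8 keratinocyte markers had a median log2 fold change of −0.0046, with 0 called by edgeR. At an unadjusted p under 0.05 in edgeR there were 2, where 19% of all tested genes were. DESeq2 called 2, Krt15 and Trp63, both higher in the knockout, where it called 872 of all 15422 genes, and limma-voom and limma called 0.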
